A study of Mus musculus with 2 samples.

Results

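miR-210 is the microRNA (miRNA, a small RNA that represses messenger RNAs) most widely known for its induction by low oxygen. On the 2 arrays described here it was taken as every non-control spot annotated to mmu-miR-210. That is 1 of 567 mouse miRNAs, measured by 2 probes with 10 spots each on each array. The samples were microvesicles that 3T3-L1 adipocytes had shed into their medium, pelleted by ultracentrifugation, in a late window (days 8 to 10 of differentiation) and an early window (days 2 to 4), each of 48 h and each hybridised to 1 array. 3T3-L1 is a mouse preadipocyte line, and in both windows differentiation had been started with a mix of 3-isobutyl-1-methylxanthine at 0.5 mM, dexamethasone at 0.25 µM and insulin at 10 µg/ml, in medium with 10% fetal calf serum, whose own vesicles cannot be told apart from those of the cells. The labels used here state no oxygen level for either window. Since neither window was replicated, differences are given without p-values, and their errors reflect only the scatter among spots within an array.

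In cells short of oxygen, the transcription factor HIF-1 binds near the miR-210 gene and raises its transcription. The mature miRNA represses iron-sulfur cluster scaffold proteins (ISCU) and other mitochondrial components, which lowers respiration. It also acts on the cell cycle and on angiogenesis, and in 3T3-L1 cells it has been reported to favour adipocyte differentiation through Tcf7l2, a mediator of Wnt signalling.

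The sequences below, from RefSeq (GRCm38.p6), show what the array entry stands for. The array entry names no arm; in miRBase usage the name without a suffix belonged to the 3p strand, the strand known to accumulate. In both mature sequences the capitals mark the seed, bases 2 to 8 from the 5′ end, which selects the target transcripts. In the hairpin they mark both mature arms, 5p first.
mmu-miR-210-3p: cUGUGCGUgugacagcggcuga
mmu-miR-210-5p: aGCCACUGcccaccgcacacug
Mir210 hairpin: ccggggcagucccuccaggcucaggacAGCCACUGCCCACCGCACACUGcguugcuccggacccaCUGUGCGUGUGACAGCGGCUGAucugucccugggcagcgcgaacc

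The hairpin lies on the minus strand at chr7:141221384-141221493, with the 3p arm at chr7:141221407-141221428 and the 5p arm at chr7:141221445-141221466 (GRCm38.p6). No annotated gene of that assembly contains it, and its neighbours in the RefSeq gene table are Rassf7 and Gm51460. Folded with RNAfold, the 110-base hairpin had a minimum free energy of -48 kcal/mol, and 16 of the 22 bases of the 3p strand paired with the 5p strand. The 3p strand holds 14 G or C bases of 22 (63.6%), against a median of 52.2% over 1674 distinct mouse mature sequences, of which 17.7% are at least as GC-rich. No other mouse mature sequence in that table has its seed. The longest unbroken run that any of them shares with it is 9 bases, in miR-7672-5p, which is not an entry of this array. Among sequences matched by name to 364 other array entries, the longest shared run is 8 bases (miR-293-5p and miR-542-3p). Array entries left unmatched were not compared.

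The deposited files place both miR-210 probes on chromosome 7, in coordinates whose genome build neither the labels nor the file headers name. Probe A_54_P1443 covers 16 bases (chr7:148407306-148407321) and probe A_54_P1444 covers 15 bases (chr7:148407306-148407320), so both start at the same position and 1 base separates their ends. They read nearly the same stretch of a single miRNA and are not independent measurements. The nearest other array miRNA on the chromosome by these positions is miR-202-5p, 1.26 Mb away, so miR-210 belongs to no cluster of array miRNAs.

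miR-210 was detected in both preparations and gave the brighter signal in late vesicles. Probe A_54_P1443 had processed intensities between 57.8 and 67.8 with a median of 60.0 over 10 spots at day 8-10, and between 21.4 and 27.6 with a median of 24.4 over 9 spots at day 2-4. Processed intensities are linear and have a fitted background surface already subtracted. Every late spot of this probe lay above every early spot used. A further early spot, at 40.1, was marked as an outlier by the scanner software and left out, and it too lay below the dimmest late spot. Probe A_54_P1444 had intensities between 27.0 and 33.1 with a median of 31.1 at day 8-10, and between 12.6 and 15.7 with a median of 14.4 at day 2-4, over 10 spots each. The spots of this probe did not overlap between the arrays either. Spots are technical repeats, and how many other miRNAs separate as fully was not counted. The spot-to-spot coefficient of variation was 5.62% (A_54_P1443) and 6.13% (A_54_P1444) at day 8-10, and 8.39% and 7.93% at day 2-4.

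**Figure D1:**
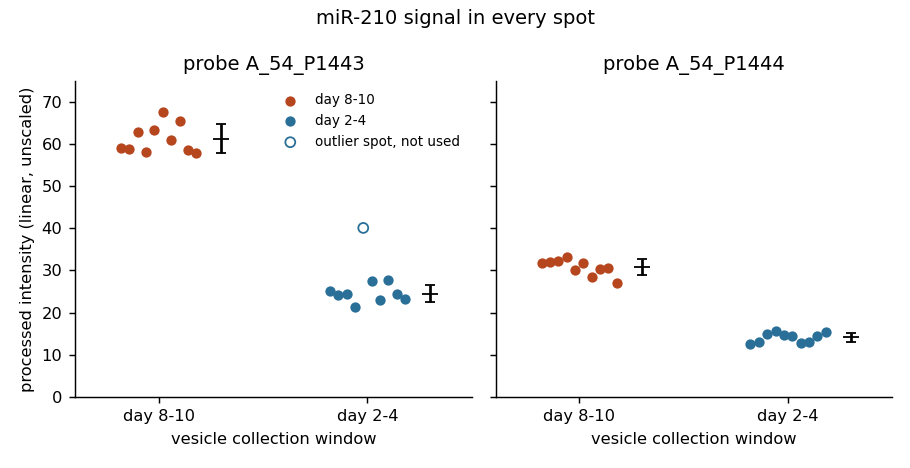
Processed intensity (linear, before scaling) of every miR-210 spot, by probe, in day 8-10 vesicles (left in each panel) and day 2-4 vesicles (right), with the mean and SD over the spots used as a bar beside them. The open circle is the early spot at 40.1 that was left out, and on both probes all late spots lie above all early ones.

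The signal was well clear of background on both arrays. All 20 spots were flagged well above background at day 8-10 and all 20 at day 2-4, and none was saturated. The 672 negative control spots had a median of -0.28 and a maximum of 11.2 at day 8-10, and a median of -0.23 and a maximum of 9.87 at day 2-4. None of them reached the dimmest miR-210 spot of its own array. Before background subtraction the margin was smaller. Raw spot means of A_54_P1443 averaged 106.8 at day 8-10 and 70.1 at day 2-4, and those of A_54_P1444 averaged 76.3 and 59.6 in the same order, over local backgrounds of 41 to 47 at day 8-10 and 40 to 45 at day 2-4. The ratio of the raw means was therefore 1.52 and 1.28, so the size of the miR-210 difference rests on how background is removed.

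For the comparison between windows, intensities were divided, array by array, by the 75th percentile of probes that both arrays detected, and put on a log2 scale. miR-210 then stood at -1.14 at day 8-10 and -2.55 at day 2-4, a log2 difference of 1.41 (spot SE 0.033), or 2.66-fold higher at day 8-10. A span of 2 spot SE on each side runs from 2.54-fold to 2.78-fold. A_54_P1443 gave 2.85-fold (log2 difference 1.51, spot SE 0.047) and A_54_P1444 gave 2.48-fold (1.31, spot SE 0.046). The probes thus pointed the same way, with sizes further apart than 2 spot SE of either. Matching each spot to the one at the same place on the other array gave 19 usable pairs, and in all 19 the late spot was brighter, by 1.76-fold to 2.71-fold before scaling. After scaling, the median of these pairs was 2.69-fold and 18 of 19 reached 2-fold, the exception being a pair of A_54_P1444 at 1.998-fold. Spots are technical repeats with little scatter (median spot SE 0.045 over the 145 miRNAs detected on both arrays). The share of other miRNAs whose spots or pairs separate as fully is not given here, so the separation is not particular to miR-210. The scanner software's own summed signal for miR-210, unscaled, was 61.3 ± 4.69 at day 8-10 and 25.6 ± 2.12 at day 2-4 (the software's error), a ratio of 2.40.

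Against the rest of the array, miR-210 was among the larger gains but not alone. The criterion for a higher or lower miRNA was detection in both windows with a difference of 2-fold or more that also exceeded 2 spot SE. Of the 145 miRNAs detected on both arrays, 23 were higher at day 8-10, miR-210 included, which is 15.9%, and 11 were lower (7.59%). This balance turned when undetected probes entered the 75th percentile: 10 miRNAs were then higher and 29 lower, and miR-210, at 1.87-fold, was not among the 10. miR-210 had the 13th most positive difference. The median over all 145 was 0.20, with the middle 50% between -0.22 and 0.73, so miR-210 lay 1.21 above the median on the log2 scale, or 2.31-fold. That distance does not depend on the factor by which an array is scaled. It was 1.12 with quantile normalization, where miR-210 had the 16th most positive difference, and 0.36 with quantile normalization after normexp background correction at an offset of 50, where it had the 27th. After normexp, miR-210 stayed below 2-fold, at 1.25-fold with the offset of 50 and 1.73-fold with an offset of 0. An offset of 50 is a constant added to every spot, of the order of the miR-210 intensities. By construction it draws the ratios of dim miRNAs towards 1.

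**Figure D2:**
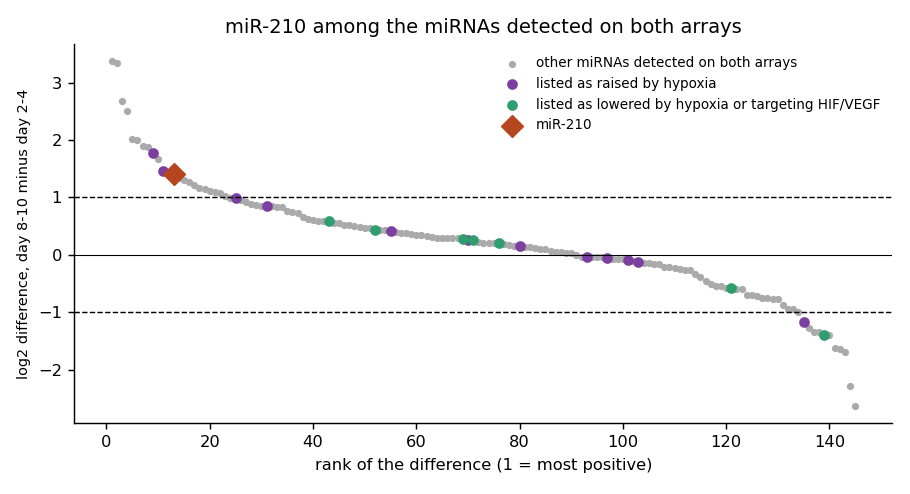
Log2 difference, day 8-10 minus day 2-4, of the 145 miRNAs detected on both arrays, ordered from most positive to most negative, with dashed lines at 2-fold. miR-210 (diamond) holds position 13 at 1.41, and the coloured points are the members of the 2 hypoxia lists.

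miR-210 was higher at day 8-10 under scaling on miRNA probes, and lower under scaling on most of the control probes. Of the 6 positive control probes well above background on both arrays, whose content the labels do not describe, 5 were brighter at day 8-10, by 3.89-fold to 10.0-fold in the median of their spots, and the remaining one (mr_1) stood at 0.79 of its day 2-4 level. With 1 array per window, these ratios are differences between 2 arrays, and their cause was not tested. Scaled to each of the 5 brighter control probes in turn, miR-210 was lower at day 8-10, with log2 differences between -0.73 and -2.10, and scaled to mr_1 it was higher (1.57). The arrays shared 1 slide and 1 scan. The RNA preparation, its labelling and the collection window cannot be told apart. For each array 100 ng of RNA was labelled, so a signal is relative to the RNA labelled. At day 8-10, more miR-210 per vesicle, more vesicles of a kind that carries it and less of the other RNA cannot be told apart.

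**Figure D3:**
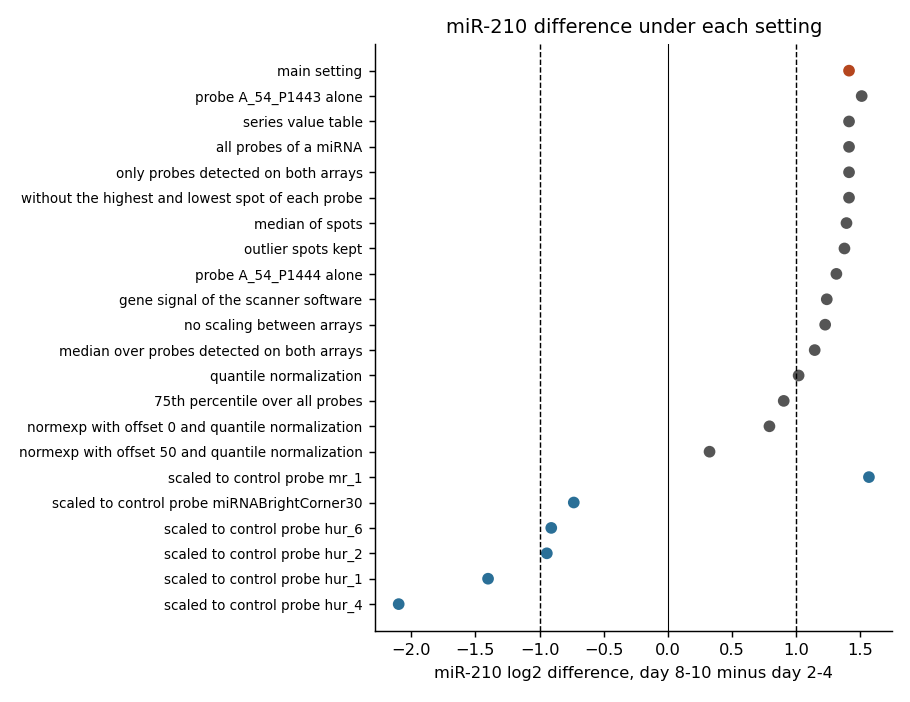
Log2 difference of miR-210, day 8-10 minus day 2-4, in the main setting (top), under the other settings of scaling, background correction, spots and probes (grey) and after scaling to each positive control probe (blue), with dashed lines at 2-fold. The grey points run from 0.32 to 1.51 and lie above 0, while 5 of the 6 blue points lie below 0.

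The miRNAs whose difference was nearest to that of miR-210, by absolute distance in the log2 difference over the 2 arrays, were miR-365, miR-107, miR-378, miR-671-5p, miR-721 and miR-705. miR-365, studied in brown fat together with miR-193b, was 2.71-fold higher at day 8-10. miR-107, encoded in an intron of the pantothenate kinase gene Pank1, was 2.76-fold higher. miR-378, encoded within the coactivator gene Ppargc1b, was 2.53-fold higher. These 3 lay within 2 combined spot SE of miR-210, so spot error does not place them in an order. miR-671-5p (2.46-fold), miR-721 (2.42-fold) and miR-705 (2.32-fold) lay further away than that. All 6 kept a positive difference under each of 12 other settings of scaling, background correction and summary, and so did miR-210. Scaling to a control probe is not among the 12, and miR-210 was negative with 5 of those 6 probes. Some of the 12, such as the deposited value table, could only repeat the main value of miR-210. The size was less stable: 2-fold was reached under 10 of the 12 settings by miR-365 and miR-107, under 9 by miR-378 and miR-210, under 8 by miR-671-5p and miR-721 and under 6 by miR-705. With 2 arrays a likeness of this kind is only a similar ratio.

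Other hypoxia-linked miRNAs were divided among higher, lower and neither. Of 15 miRNAs reported to be raised by hypoxia, mostly in human cancer cells, 12 were detected on both arrays, and 2 of these were higher at day 8-10 (16.7%, beside 15.9% of all miRNAs), 1 was lower and 9 passed in neither direction. Their median log2 difference was 0.21, beside 0.20 over all 145. Both medians were below 0 with the 75th percentile over all probes (-0.30 for the list and -0.30 for all) and with the median as scaling factor (-0.056 and -0.063). The 2 higher members were miR-103, 3.44-fold higher, and miR-107. Their sequences are nearly identical, so cross-hybridisation between their probes is possible and they are not separate evidence. miR-107 is known in human colon cancer cells to repress ARNT, the partner of HIF-1α. miR-322, the mouse counterpart of human miR-424, which stabilises HIF-1α in endothelial cells, was 2.24-fold lower (log2 difference -1.17, spot SE 0.024). After normexp with the offset of 50 and quantile normalization its difference was -0.82, below 2-fold, while that of miR-107 was 0.79.

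The members that passed in neither direction spanned both signs. miR-26b had a log2 difference of 0.99 and miR-27b of 0.85, miR-24 of 0.41, miR-27a of 0.26 and miR-21 of 0.16. miR-23b (-0.031), miR-26a (-0.048), miR-181b (-0.085) and miR-23a (-0.12) were close to 0. The signs of miR-21, miR-24, miR-27a and miR-23b turned under at least 1 other setting. miR-155, which represses HIF1A in human cells, had no probe well above background at day 8-10, which makes it at least 1.26-fold lower there than at day 2-4 in the main setting. Its log2 difference, -0.33 there, ranged over the other settings from -0.16 (normexp with the offset of 50 and quantile normalization) to -1.75 (the scanner software's gene signal). miR-181a was also detected only at day 2-4, without a usable bound, and miR-181c on neither array.

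The second list held 9 miRNAs reported to be lowered by hypoxia or to target HIF subunits, their regulators or VEGF. It had 7 members detected on both arrays, with miR-17 and miR-18a detected on neither. None of the 7 was at least 2-fold higher (15.9% of all miRNAs were) and 1 was lower (7.59% of all). Their median log2 difference was 0.26, beside 0.20 over all 145, and was below 0 with the 75th percentile over all probes (-0.25). The lower member was miR-199a-5p, known in rat cardiac myocytes to repress HIF-1α, at 2.64-fold lower (log2 difference -1.40, spot SE 0.045), and below 2-fold (-0.75) after normexp with the offset of 50 and quantile normalization. miR-22, which targets HIF1A in human colon cancer cells, had a log2 difference of 0.59, and miR-15b, linked to VEGF in human carcinoma cells, of -0.58. miR-20b (0.44), miR-20a (0.28), miR-31 (0.26, known in human carcinoma cells to repress the HIF inhibitor FIH) and miR-16 (0.20) lay nearer to 0, and the sign of each turned under at least 1 other setting.

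**Figure D4:**
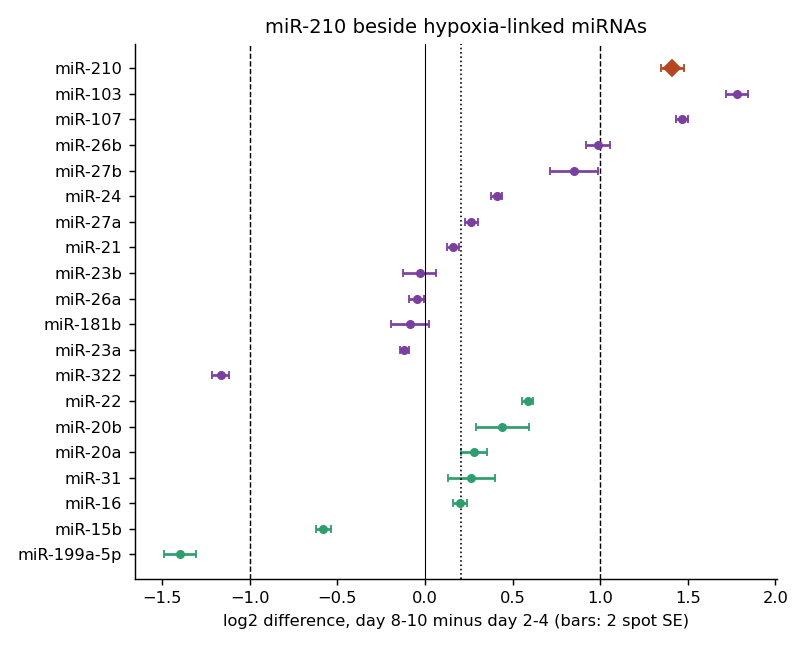
Log2 difference, day 8-10 minus day 2-4, of miR-210 (diamond) and of the members detected on both arrays of the list raised by hypoxia (purple, from miR-103 to miR-322) and of the list lowered by hypoxia or targeting HIF or VEGF (green, from miR-22 to miR-199a-5p), with bars of 2 spot SE. Dashed lines mark 2-fold and the dotted line the median of all 145 miRNAs at 0.20, and in these lists only miR-103 and miR-107 reach the level of miR-210.

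Markers of the labelled cell type were present, as were some blood-cell miRNAs, and those of the other listed cell types were not detected. Of 6 miRNAs abundant in adipocytes, miR-103, miR-378, miR-148a, miR-143 and miR-30a were detected on both arrays, and miR-145 on neither. Of these 5, miR-148a (3.72-fold), miR-103 (3.44-fold) and miR-378 (2.53-fold) were higher at day 8-10, which is 60% beside 15.9% of all miRNAs. miR-30a (log2 difference 0.85) and miR-143 (0.77) stayed below 2-fold. The list was chosen with earlier results of these data known, so the share is no test of enrichment. The median of the 5 was 1.34, beside 1.41 for miR-210 and 0.20 over all 145, and the part of adipocyte miRNA content in the miR-210 result was not tested. None of the 4 muscle, 1 liver, 2 neural and 2 endothelial markers was detected. In all, 390 of the 567 miRNAs were undetected. Of 7 blood-cell miRNAs, which serum also carries, miR-451 (log2 difference 0.043), miR-486 (0.046) and miR-223 (-0.22) were detected on both arrays and miR-144 only at day 8-10. The log2 level of miR-451 was 2.73 at day 8-10 and 2.69 at day 2-4. Each of the 5 detected adipocyte markers was dimmer on both arrays, the brightest being miR-103 at 1.04 and -0.74. The part of the blood-cell miRNAs in the miR-210 difference was not tested.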

How the data were processed

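Total RNA from microvesicles was hybridised to 1-colour Agilent mouse miRNA arrays. The deposited intensity of a spot is its signal minus a fitted background surface, unscaled between arrays; Agilent Feature Extraction (version 9.5.3.1) produced it, per the file headers. Other values, per the file headers, are flags for spots well above background, saturated or outlying. The deposited value table held the same intensity for all 12493 spots of each array (medians 0.65 at day 8-10 and 0.52 at day 2-4), so it was linear and uncentred.

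Spots of controls were not used, nor were outliers (249 spots at day 8-10, 237 at day 2-4). Detection of a probe required that over 0.5 of its spots be well above background. Each array was divided by the 75th percentile of its signals on the 279 probes that both arrays detected (95.2 at day 8-10, 108.3 at day 2-4), floored at its lowest detected probe (5.55 and 4.86) and log2 transformed, with Python 3.11.15. Spots were averaged per probe, and probes detected on at least 1 array per miRNA. For a miRNA not well above background in 1 window the fold is a bound, against the higher of that array's floor and its own signal. At day 8-10, 166 miRNAs (29.3%) were detected, and 156 (27.5%) at day 2-4. Normexp used limma 3.58.1. The calculation was tested on simulated arrays. The number of arrays limits the precision.

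miR-210 and the lists were chosen with earlier results of these data known. Named were miR-210, detected members of both hypoxia lists and the 6 miRNAs nearest in log2 difference; cell type markers were counted.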

Additional observations from a re-analysis of the deposited data

How the results depend on the processing

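The log2 difference of miR-210 was above 0 under 16 of 16 alternatives of scaling, background correction, spots and probes, and at least 2-fold under 13 of them. Not all 16 are separate checks. The deposited value table, only probes detected on both arrays and all probes of a miRNA could only repeat the main 1.41. The brightest probe is A_54_P1443, which is also counted alone (1.51). The miR-210 value moved by more than 1 SD over spot pairs (0.15) with the 75th percentile over all probes (0.90), no scaling (1.23) and the median as factor (1.14). It also moved with quantile normalization (1.02), the scanner software's gene signal (1.24), and normexp at offset 50 followed by quantile normalization (0.32). That last setting started from raw spot means and local backgrounds, added the offset and used no floor, so several steps changed together. All normexp values here include quantile normalization, and normexp alone was not run. Alternatives chosen after seeing the data were normexp at offset 0 (0.79), the highest and lowest spot of each probe left out (1.41), and scaling to a control probe, which gave 1.57 (mr_1), -0.73 (miRNABrightCorner30), -0.91 (hur_6), -0.94 (hur_2), -1.40 (hur_1) and -2.10 (hur_4); the cause of these reversals was not tested. Counts at least 2-fold higher were 10 (75th percentile over all probes), 5 (normexp at offset 50) and 12 (offset 0), against 23. They were 16 (median), 16 (quantile), 17 (no scaling) and 19 (gene signal) under other settings. Counts lower were 29 (75th percentile over all probes), 19 (median), 17 (quantile), 15 (no scaling), 5 (normexp at offset 50) and 18 (gene signal), against 11. The median of the list raised by hypoxia moved from 0.21 to -0.30 (75th percentile over all probes), 0.026 (no scaling), -0.056 (median), 0.062 (normexp at offset 50), 0.066 (offset 0) and -0.0010 (gene signal). That of the second list moved from 0.26 to -0.25, 0.078, -0.0038, -0.032, -0.092 and 0.077 in the same order, and to -0.071 with quantile normalization. Scaling to a control probe was run for miR-210 only. Of 310 values of the other named miRNAs under the remaining settings, 165 moved by more than their spot SD. None of these called values changed sign, but some lost 2-fold. Among list members these were miR-322 (-0.82), miR-199a-5p (-0.75) and miR-107 (0.79) with normexp at offset 50. With the 75th percentile over all probes it was miR-107 (0.96). No paired analysis was possible because each window has 1 array.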
